A study of Mus musculus with 6 samples.

Results

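The genes of ceramide, sphingolipid and sphingosine-1-phosphate (S1P) metabolism were followed in mouse livers with and without a hairpin RNA against the S1P receptor S1pr2. The set was drawn up as 37 gene symbols, from serine palmitoyltransferase through ceramide to sphingomyelin, glucosylceramide and S1P, and a gene was taken as a member when its symbol in the deposited tables equalled one of them. Of these, 36 were found among the 16426 genes listed in at least 1 liver. The remaining symbol, Cert1, was not found as such.

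Ceramide is the hub of this pathway. It is built at the endoplasmic reticulum from serine and a fatty acyl-CoA, is turned into sphingomyelin or glucosylceramide or cut to sphingosine, and phosphorylation of sphingosine gives S1P, which leaves the cell and acts on its own receptors. In the liver, ceramides are known for interfering with insulin signalling, and hepatocytes secrete apolipoprotein M, the lipoprotein-bound carrier of S1P in plasma.

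Total RNA was sequenced from 6 whole livers of mice on a mixed B6:sv129 background, aged 7 to 12 weeks. In 3 of them an adeno-associated virus of serotype 8 (AAV8), a vector that mainly reaches hepatocytes, carried a scrambled short hairpin RNA (shRNA), here called scramble. In the other 3 it carried an shRNA against S1pr2. Both groups received the vector by tail vein injection, and the series describes the mice as male and as given dexamethasone, a synthetic glucocorticoid, at about 0.84 mg/kg for 7 days in drinking water. The sample labels name only the shRNA, and no group without dexamethasone and no liver without AAV was used here, so the comparison is of S1pr2 shRNA with scramble shRNA under the shared treatment, including any effect of the hairpin on other transcripts. The sources used here do not name the promoter that drives the hairpin. Whether each liver of a group came from its own animal is not stated in the labels; the p-values therefore measure only how much these samples spread.

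The libraries held 16558775 to 17410160 expected counts. In each liver the targeted gene was measured first. S1pr2 (Entrez gene 14739) stood in the scramble group at 4.41, 5.23 and 6.66 CPM (counts scaled to library size with the trimmed mean of M-values) in livers 1, 2 and 3, the order kept for every gene, and in the S1pr2 shRNA group at 3.04, 2.21 and 2.23 CPM. The groups did not overlap, and S1pr2 fell by 1.12 on the log2 scale (SE 0.24 and adjusted p = 0.0301 in edgeR, exact two-sided permutation p of the CPM = 0.1, the smallest that 3 against 3 livers can give). That call rested on few counts, and it was lost when scramble liver 2 or 3 or S1pr2 shRNA liver 2 or 3 was left out (edgeR adjusted p = 0.0785, 0.0962, 0.117 and 0.101). All 10 hepatocyte markers were listed in the tables, but so were all 18 endothelial markers, so being listed does not identify the tissue. By summed level the hepatocyte markers stood far above the endothelial ones, which were at 393 to 435 CPM in scramble livers. Between groups 0 of the 10 hepatocyte markers passed the edgeR test, with an unadjusted p under 0.05 in 4 and 4 called by the DESeq2 Wald test. Their median log2 fold change was -0.31, with 1 of the 10 above 0, and their summed level was 132500 to 161700 CPM in scramble and 85160 to 124200 CPM in S1pr2 shRNA livers. Alb alone made up most of that sum, with a mean of 113600 CPM in scramble and 75490 CPM in S1pr2 shRNA livers. Apoa1, the 1 marker above 0, went from a mean of 5170 to 10940 CPM. The part of hepatocyte content in the values of the sphingolipid genes was not tested.

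Across the pathway, 1 of the 34 members that could be tested passed the edgeR test at an adjusted p under 0.05. This member was Asah2, the neutral ceramidase, and it fell. The share called among the members was 2.94%, while over all 12230 genes tested it was 7.66% (3.02% higher and 4.64% lower in S1pr2 shRNA livers). The other 2 members, Degs2 and Sphk1, had too few counts for the filter. The log2 fold changes of the 34 members lay between -1.40 and 0.52. Of these, 16 were above 0 and 18 below, with a median of -0.01, beside a median of 0.01 over all genes tested. Their median size without the sign was 0.21, beside 0.23 over all genes. Within 0.3 log2 units of 0 lay 22 members, and only Cers6 was past a 2-fold difference, without passing the test. The standard errors of the members' log2 fold changes had a median of 0.16 and reached 0.49.

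In 10 members the CPM of the groups did not overlap, 5 with all S1pr2 shRNA livers higher and 5 with all lower. That is 29.4% of the members tested, and the share over all genes was 31.9%. An unadjusted p under 0.05 was reached by 12 members, 7 higher and 5 lower, which is 35.3% of the members and compares with 24.5% of all genes. Because whole livers were sequenced, fewer cells of a type and less RNA per cell cannot be told apart in any of these values.

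**Figure D1:**
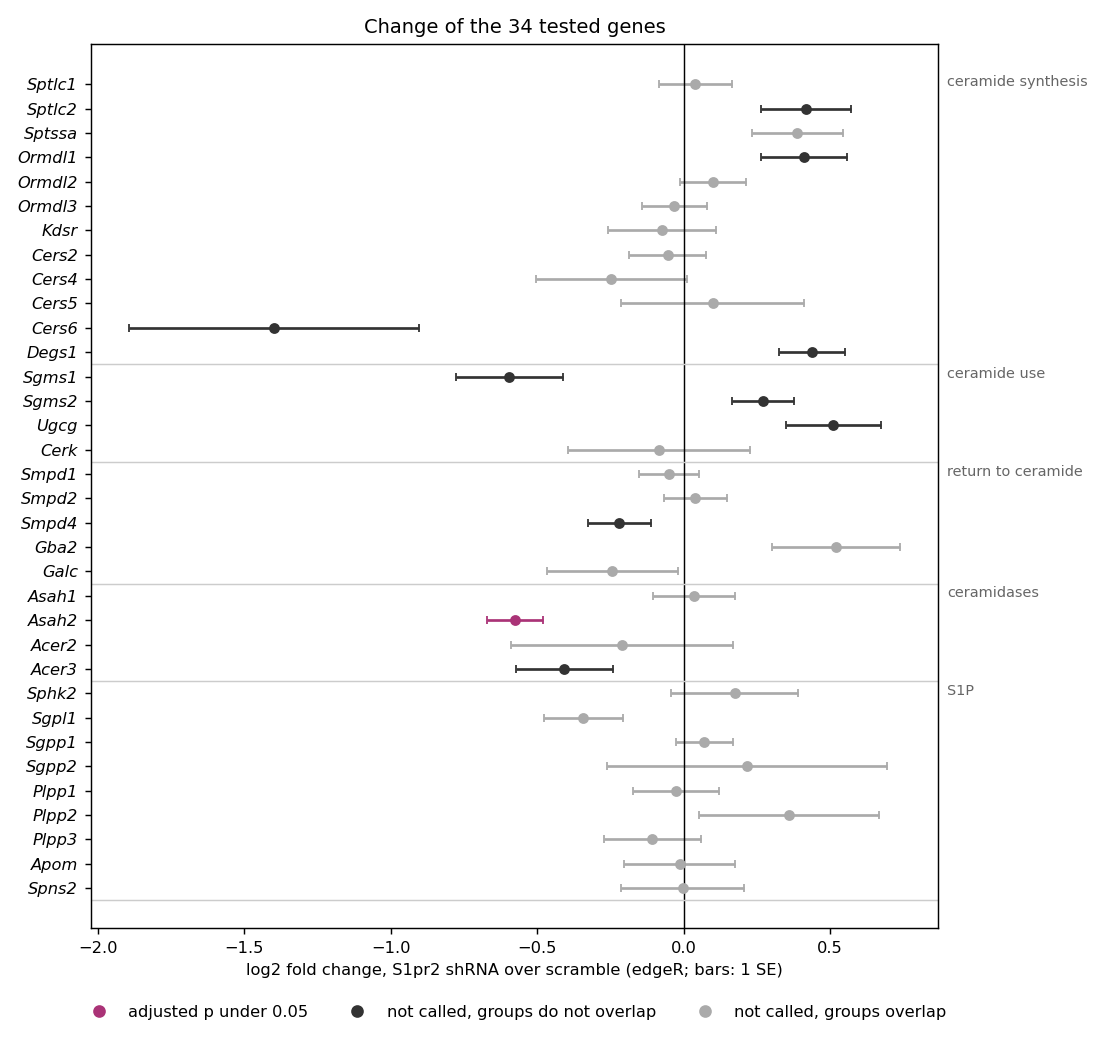
Log2 fold change (S1pr2 shRNA over scramble, edgeR) of the 34 tested members, ordered by their role, with bars of 1 SE. Asah2 at -0.58 is the only member past the adjusted threshold, and Cers6 at -1.40 lies farthest from 0 with the widest bar.

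Levels were compared between genes as FPKM, which is scaled to transcript length. Apom, the S1P carrier, and Cers2, the ceramide synthase for very long acyl chains, stood highest, Apom at 217 ± 52.0 FPKM in scramble and 239 ± 10.8 in S1pr2 shRNA livers (SD, n = 3 each) and Cers2 at 158 ± 18.5 and 168 ± 7.98. Their scramble livers overlapped, Apom ranging from 162 to 265 and Cers2 from 146 to 179 FPKM. The FPKM do not carry the library scaling of the CPM, and on log2 FPKM with 0.1 added the median log2 fold change of all genes was 0.16. In the edgeR fit of the counts Apom and Cers2 had log2 fold changes of -0.01 (SE 0.19) and -0.05 (SE 0.13). Ormdl3 (51.3 to 61.7 FPKM over the 6 livers), Plpp3 (39.7 to 52.9) and Degs1 (29.3 to 57.7) came next, and they overlapped one another. At the lower end Sphk1, Sgpp2 and Degs2 were listed at 0.08 to 0.34, 0.08 to 0.24 and 0.07 to 0.16 FPKM. The 36 members thus covered over 3 orders of magnitude in the same livers.

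**Figure D2:**
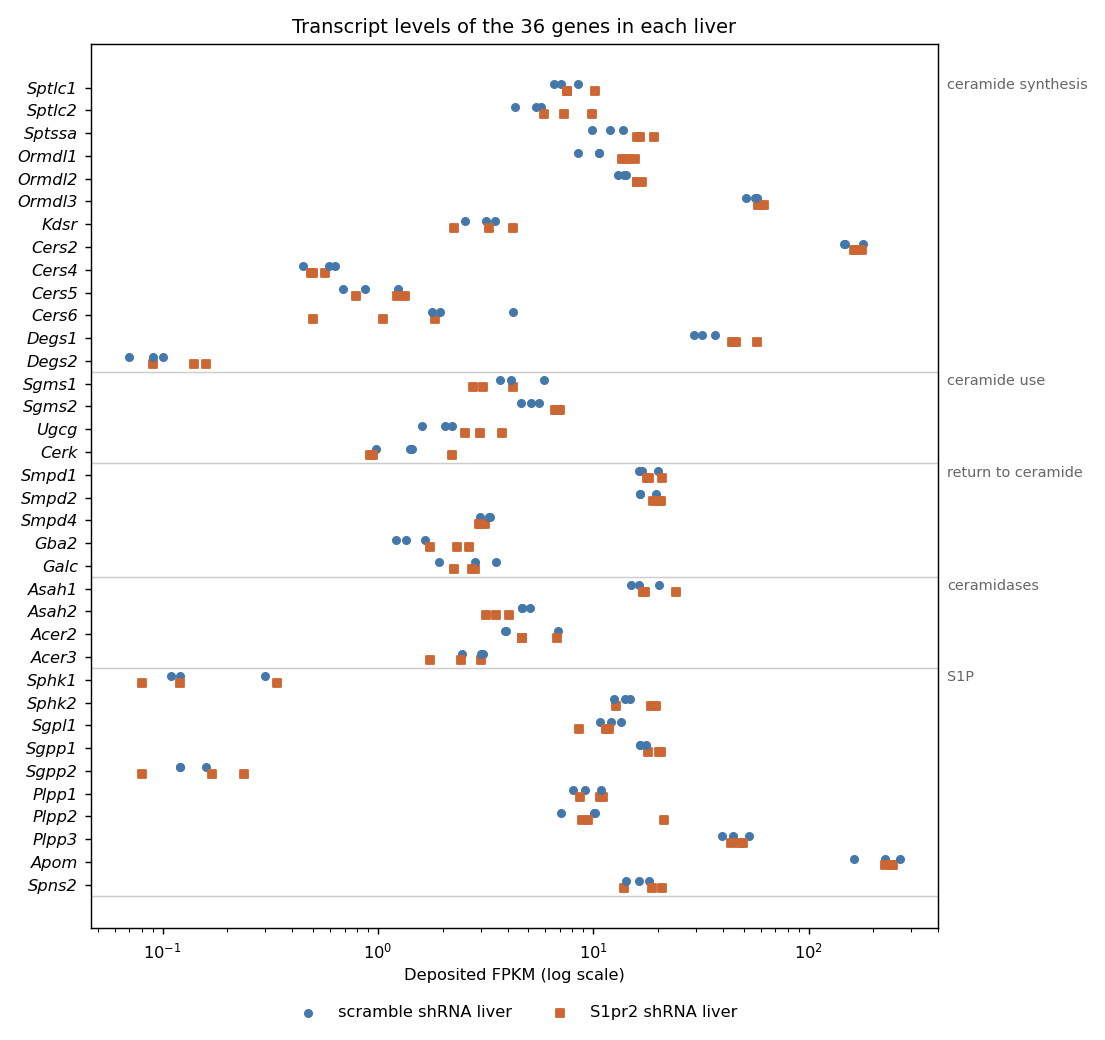
Deposited FPKM of the 36 members in each liver, on a log axis, grouped by role. Circles are scramble and squares S1pr2 shRNA livers. Apom and Cers2 stand above 100 FPKM in all livers, while Degs2, Sphk1 and Sgpp2 stay below 1.

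Ceramide synthesis from serine held 13 members, of which 12 were tested and 0 passed the edgeR test (median log2 fold change 0.07). An unadjusted p under 0.05 was reached by 5 of them, Cers6, Degs1, Sptlc2, Sptssa and Ormdl1, and the DESeq2 Wald test called 2, Degs1 and Cers6. The first step is catalysed by serine palmitoyltransferase, a complex of the catalytic subunits Sptlc1 and Sptlc2 with a small activating subunit, Sptssa. Sptlc2 was measured at 22.4, 17.7 and 21.6 CPM in scramble and 32.4, 22.8 and 27.1 CPM in S1pr2 shRNA livers. All S1pr2 shRNA livers were above all scramble livers, the nearest pair differing by little, and the log2 fold change of 0.42 (SE 0.15) did not pass the test (edgeR adjusted p = 0.141). Its partner Sptlc1 lay between 18.7 and 23.3 CPM in all 6 livers with the groups mixed. Sptssa stood at 13.8, 17.5 and 19.6 CPM in scramble and 19.4, 21.9 and 25.2 CPM in S1pr2 shRNA livers, with scramble liver 3 just above the lowest S1pr2 shRNA liver (log2 fold change 0.39, SE 0.16, edgeR adjusted p = 0.173).

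The Ormdl proteins are inhibitory subunits of serine palmitoyltransferase. Ormdl1 was measured at 16.2, 21.2 and 20.6 CPM in scramble and 21.8, 27.3 and 28.2 CPM in S1pr2 shRNA livers. The groups did not overlap, but scramble liver 2 and S1pr2 shRNA liver 1 were nearly level, and the log2 fold change of 0.41 (SE 0.15) did not pass (edgeR adjusted p = 0.134). Ormdl2 ranged from 27.6 to 35.0 CPM and Ormdl3, the most abundant of the 3, from 104 to 122 CPM, both with mixed groups. The point estimates of Sptlc2, Sptssa and Ormdl1 were thus above 0 by about the same amount, none past the threshold. Those of Sptlc1 (0.04), Ormdl2 (0.10) and Ormdl3 (-0.03) were smaller in size.

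Kdsr, the reductase of the second step, ranged from 13.0 to 20.8 CPM in both groups together. The ceramide synthases then attach an acyl chain whose length depends on the enzyme. Cers6, which prefers palmitoyl-CoA, was measured at 17.4, 7.72 and 8.11 CPM in scramble and 6.37, 2.02 and 4.10 CPM in S1pr2 shRNA livers. Scramble liver 1 stood at more than double the other scramble livers, and the groups did not overlap. The mean went from 11.1 ± 5.48 to 4.16 ± 2.18 CPM (SD, n = 3 each), with a log2 fold change of -1.40 whose SE was 0.49, and it did not pass (edgeR adjusted p = 0.149). Without scramble liver 1 the log2 fold change was -0.91 (edgeR adjusted p = 0.297). Scramble liver 1 also had the highest mean over 14 genes known as glucocorticoid targets (Tat, Fkbp5, Tsc22d3, Dusp1 and others). In scramble livers 1 to 3 their mean log2 difference from the scramble mean was 0.79, -0.63 and -0.16, and in the S1pr2 shRNA livers it was -0.69, -0.96 and -1.76. Of the 14, only Dusp1 passed the edgeR test, 5 had an unadjusted p under 0.05 and 4 were called by the DESeq2 Wald test. A log2 fold change above 0 was found in 1 of the 14. The part of this spread between livers in the Cers6 values was not tested.

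The other ceramide synthases showed no such gap. Cers2 was at 380, 326 and 318 CPM in scramble and 317, 340 and 330 CPM in S1pr2 shRNA livers, and Cers4 and Cers5 stayed between 1.47 and 2.66 CPM in all livers. In the last step Degs1, the desaturase that turns dihydroceramide into ceramide, was measured at 76.0, 63.8 and 66.9 CPM in scramble and 101, 93.5 and 86.1 CPM in S1pr2 shRNA livers. Every S1pr2 shRNA liver was above every scramble liver, with means of 68.9 ± 6.35 and 93.4 ± 7.28 CPM (SD, n = 3 each). Its log2 fold change was 0.44 (SE 0.11), and its adjusted p lay just past the threshold (edgeR adjusted p = 0.0556). The DESeq2 Wald test and edgeR with upper-quartile scaling called it, with adjusted p = 0.0172 and 0.0297. In all 6 libraries Degs1 had counts that were not whole numbers, which arises when RSEM splits a read between genes. Degs2, its paralog, had 2 to 9 counts per liver.

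**Figure D3:**
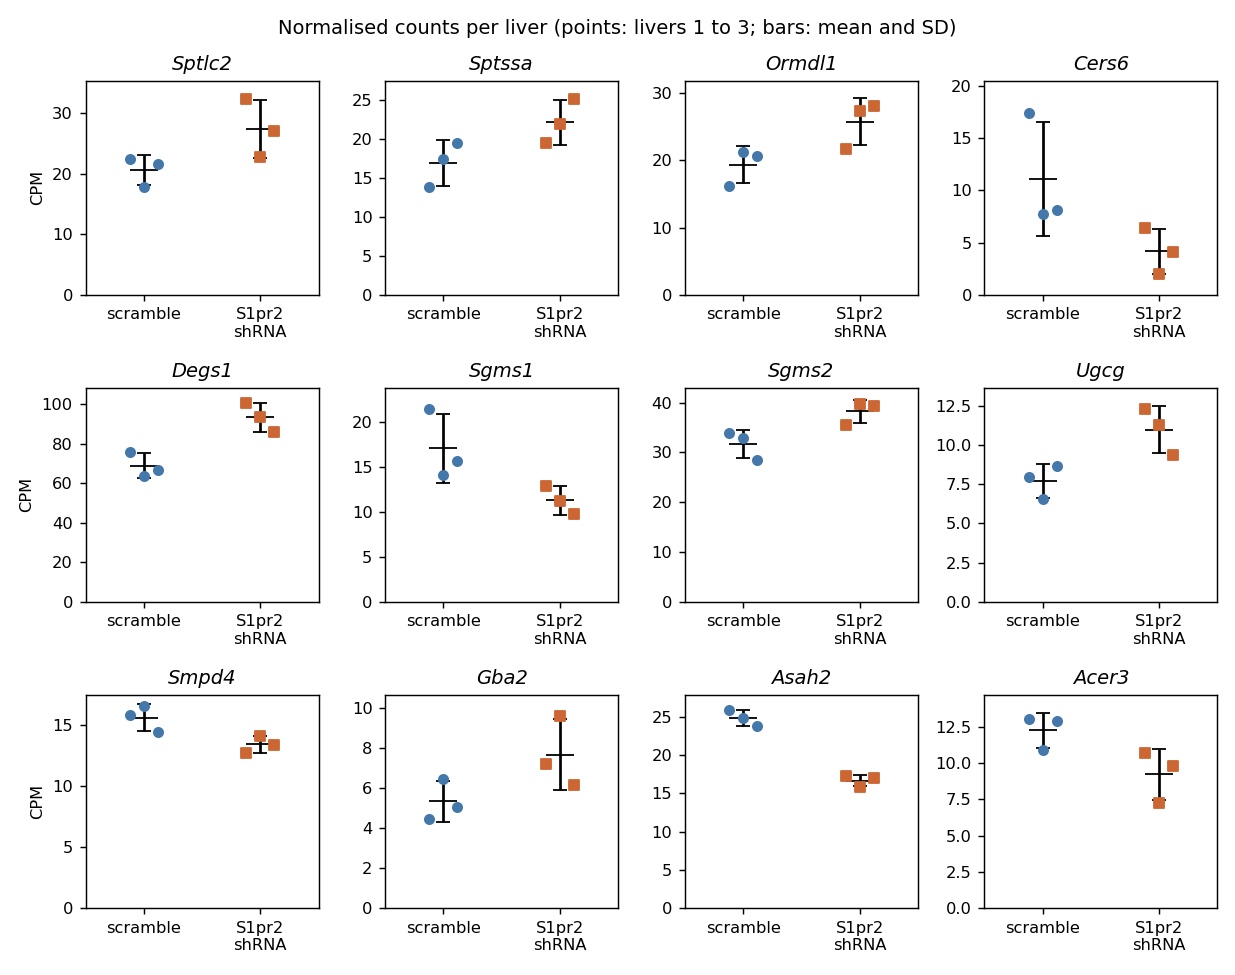
Normalised counts (CPM) in each liver of the 12 members with the largest changes or with groups that do not overlap; crossed bars give the mean and SD of 3 livers, and each panel starts at 0. The Asah2 livers form tight groups at 24.8 and 16.7 CPM on average, whereas in Cers6 scramble liver 1 stands apart at 17.4 CPM.

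Of the 4 enzymes that use ceramide, all were tested and 0 passed in edgeR or in the DESeq2 Wald test, with an unadjusted p under 0.05 in 3 (Sgms1, Sgms2 and Ugcg). Sgms1 and Sgms2 are the sphingomyelin synthases, the first working mainly in the Golgi and the second also at the plasma membrane. Sgms1 was measured at 21.5, 14.1 and 15.7 CPM in scramble and 13.0, 11.2 and 9.78 CPM in S1pr2 shRNA livers (log2 fold change -0.59, SE 0.18, edgeR adjusted p = 0.0902). Sgms2 was measured at 33.8, 32.8 and 28.5 CPM in scramble and 35.6, 39.7 and 39.4 CPM in S1pr2 shRNA livers (log2 fold change 0.27, SE 0.11, edgeR adjusted p = 0.165). In neither gene did the groups overlap, and the estimates had opposite signs, Sgms1 being lower and Sgms2 higher in all 3 S1pr2 shRNA livers.

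Ugcg, which makes glucosylceramide and so opens the glycosphingolipid branch, was at 7.97, 6.53 and 8.65 CPM in scramble and 12.3, 11.3 and 9.37 CPM in S1pr2 shRNA livers. The groups did not overlap, and the log2 fold change of 0.51 (SE 0.16) did not pass (edgeR adjusted p = 0.0982). Cerk, which phosphorylates ceramide, ranged from 4.16 to 8.85 CPM, and S1pr2 shRNA livers held both ends of that range. The ceramide transfer protein that carries ceramide to the Golgi, listed as Cert1 in the set, is carried in the tables as Col4a3bp (Entrez gene 68018), an older symbol that the RefSeq gene table pairs with it. It was not counted as a member. Col4a3bp was at 31.6, 30.4 and 25.1 CPM in scramble and 22.1, 20.8 and 25.8 CPM in S1pr2 shRNA livers, with overlapping groups (log2 fold change -0.34, SE 0.13, edgeR adjusted p = 0.154).

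The 5 enzymes that give ceramide back from complex sphingolipids were all tested, and 0 passed in edgeR or in the DESeq2 Wald test, with an unadjusted p under 0.05 in 1 (Gba2). Smpd1, the lysosomal acid sphingomyelinase, lay between 41.5 and 50.2 CPM, and Smpd2, a neutral sphingomyelinase, between 27.8 and 33.1 CPM, both with mixed groups. Smpd4, another neutral sphingomyelinase, was at 15.9, 16.6 and 14.4 CPM in scramble and 12.8, 14.1 and 13.4 CPM in S1pr2 shRNA livers. These groups stood side by side without overlap, at a log2 fold change of -0.22 (SE 0.11 and adjusted p = 0.250 in edgeR). Gba2, the glucosylceramidase outside the lysosome, was at 4.47, 6.47 and 5.08 CPM in scramble and 7.23, 9.62 and 6.15 CPM in S1pr2 shRNA livers. Its groups overlapped, its counts were split between genes in all 6 libraries, and its log2 fold change of 0.52 (SE 0.22) did not pass (edgeR adjusted p = 0.191). Galc, the lysosomal galactosylceramidase, ranged from 7.72 to 14.9 CPM, and scramble livers held both ends.

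Ceramidases cut ceramide to sphingosine and a fatty acid, and 1 of the 4 members passed. Asah2, the neutral ceramidase (Entrez gene 54447), was measured at 25.9, 24.8 and 23.8 CPM in scramble and 17.2, 15.8 and 17.0 CPM in S1pr2 shRNA livers. Both groups were tight and stood well apart. The mean fell from 24.8 ± 1.00 to 16.7 ± 0.75 CPM (SD, n = 3 each), a change of -0.58 on the log2 scale (SE 0.09 and adjusted p = 0.0142 in edgeR), to 67.1% of the scramble level. Of 16 alternative settings 13 kept the call. It was lost without S1pr2 shRNA liver 2 (log2 fold change -0.54, edgeR adjusted p = 0.0740) and in limma fits of log2 FPKM, with 0.1 or 1 added, (log2 fold change -0.42 and -0.34, limma adjusted p = 0.105 and 0.107). Asah2 had counts that were not whole in 4 libraries, so part of its reads was shared with another gene.

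Acer3, an alkaline ceramidase, was at 13.1, 10.9 and 12.9 CPM in scramble and 10.7, 7.29 and 9.78 CPM in S1pr2 shRNA livers. The lowest scramble and the highest S1pr2 shRNA liver nearly met, and the log2 fold change of -0.41 (SE 0.17) did not pass (edgeR adjusted p = 0.178). Acer2, the alkaline ceramidase of the Golgi, was at 27.8, 11.8 and 11.6 CPM in scramble and 17.6, 14.6 and 11.9 CPM in S1pr2 shRNA livers, so that scramble liver 1 stood apart as it did for Cers6, while the other scramble livers lay just below all S1pr2 shRNA livers. Asah1, the lysosomal acid ceramidase and the most abundant of the 4 per length, lay between 36.7 and 47.7 CPM with mixed groups.

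The genes that make, break down and export S1P itself, the ligand of the targeted receptor, did not separate the groups. Of 10 members 9 were tested and 0 passed in edgeR or in the DESeq2 Wald test. Sgpl1 alone had an unadjusted p under 0.05, and the groups overlapped in all 9. Of the kinases that make S1P, Sphk2 ranged from 41.0 to 72.1 CPM, with both ends in S1pr2 shRNA livers, and Sphk1 had 2 to 10 counts per liver. Sgpl1, the lyase that ends the pathway by cleaving S1P, was at 46.4, 54.9 and 58.5 CPM in scramble and 41.6, 36.4 and 48.1 CPM in S1pr2 shRNA livers. S1pr2 shRNA liver 3 lay above scramble liver 1, and Sgpl1 did not pass (log2 fold change -0.34, SE 0.14, edgeR adjusted p = 0.171).

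Sgpp1, the S1P phosphatase of the endoplasmic reticulum, lay between 57.4 and 67.9 CPM with overlapping groups, and Sgpp2 had 6 to 16 counts per liver. The lipid phosphate phosphatases Plpp1, Plpp2 and Plpp3, which remove phosphate from S1P and other lipids outside the cell, ranged from 13.8 to 18.5, from 12.6 to 30.2 and from 120 to 183 CPM. The highest Plpp2 value came from S1pr2 shRNA liver 1, the other 5 livers lying at or below 17.2 CPM. Spns2, an exporter of S1P, ranged from 35.3 to 62.1 CPM and Apom from 119 to 197 CPM, in both cases with S1pr2 shRNA and scramble livers interleaved. Apom had a log2 fold change of -0.01 with an SE of 0.19.

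Paralogs were then compared within each liver as shares of the summed FPKM of their family, a measure that does not depend on how libraries are scaled to each other. Of 25 shares in 9 families, 10 did not overlap between the groups. Each of those 10 had an exact two-sided permutation p of 0.1, the smallest possible with 3 against 3 livers, and an adjusted p of 0.25 over the 25 shares. The shares of a family sum to the whole, so the 10 are not separate changes. Sgms1 and Sgms2, for example, mirrored each other at -14.0 and 14.0 percentage points. On the different measure of CPM, 31.9% of all genes tested did not overlap. With shares of expected counts in place of FPKM, which do not allow for transcript length, 19 of the 25 differences moved by less than the spread between livers and 6 by more (Cers2, Cers6, Smpd4, Asah2, Degs1 and Degs2). Among these the difference for Asah2 was -6.00 in place of -4.59 percentage points and that for Cers6 -1.78 in place of -0.94. Sgms1 took 51.4, 41.6 and 47.1% of the sphingomyelin synthase FPKM in scramble and 37.8, 31.5 and 28.7% in S1pr2 shRNA livers. In scramble livers the 2 synthases were thus near parity (Sgms1 46.7 ± 4.89%, SD, n = 3), and in S1pr2 shRNA livers Sgms2 was the larger in all 3 (Sgms1 32.7 ± 4.66%). Among the Ormdl genes, the share of Ormdl3 was 72.5, 67.4 and 70.1% in scramble and 66.7, 65.0 and 66.2% in S1pr2 shRNA livers, and that of Ormdl1 was 10.9, 13.9 and 13.0% against 15.3, 16.3 and 16.7%.

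Asah2 made up 16.3, 18.0 and 14.7% of the ceramidase FPKM in scramble and 10.6, 11.8 and 12.8% in S1pr2 shRNA livers. Acer3 also had lower shares there (9.83, 9.42 and 9.46% against 7.86, 6.48 and 8.79%), whereas the Asah1 shares, 52.0 to 63.6% and 61.6 to 64.5%, overlapped. Several families were dominated by 1 gene in every liver. Cers2 held 97.1 to 98.9% of the FPKM of the 4 ceramide synthases, Sphk2 held 97.4 to 99.6% of the S1P kinases and Sgpp1 held 98.7 to 99.6% of the S1P phosphatases. Cers6, the synthase with the largest log2 fold change, was 2.3, 1.2 and 1.3% of its family in scramble and 1.0, 0.30 and 0.63% in S1pr2 shRNA livers. Among the lipid phosphate phosphatases Plpp3 held 57.6 to 77.8%, with overlapping groups.

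**Figure D4:**
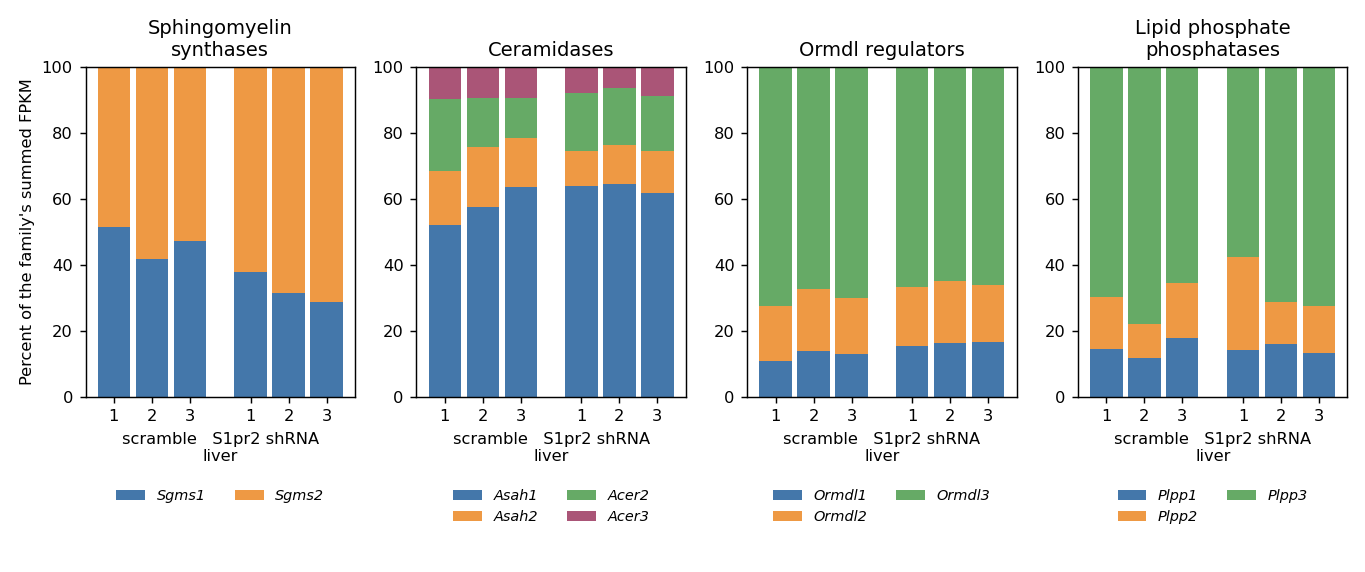
Share of each paralog in the summed FPKM of its family, in percent, for 4 families; each column is 1 liver. Sgms1 takes 41.6 to 51.4% in scramble and 28.7 to 37.8% in S1pr2 shRNA livers, while the lipid phosphate phosphatases overlap between groups.

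The genes around the pathway were counted from 8 lists of supply, transport, glycosphingolipid, lysosomal, receptor, carrier and glucocorticoid target genes. Of 89 such genes tested, 16 passed the edgeR test, 5 higher and 11 lower, S1pr2 among them. That is 18.0%, beside 7.66% of all genes. The lists were drawn up with results of these livers known, so that share describes these genes and is no independent evidence.

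In the list of further sphingolipid enzymes and transfer proteins 1 of 15 rose and 2 fell (median log2 fold change -0.25). The one that rose was Gal3st1, the sulfotransferase that makes sulfatide from galactosylceramide, at 1.10, 1.56 and 1.33 CPM in scramble and 5.11, 3.92 and 4.16 CPM in S1pr2 shRNA livers. The groups were far apart, by 1.72 log2 units (SE 0.24 and adjusted p = 0.00896 in edgeR), and the call held in all 16 alternative settings. Plekha8, a glucosylceramide transfer protein, fell by 0.55 on the log2 scale (SE 0.13 and adjusted p = 0.0447 in edgeR) and Zdhhc9, a protein acyltransferase, fell by 0.55 (SE 0.13 and adjusted p = 0.0465 in edgeR). These 2 calls were near the threshold and held in 8 and 6 of the 16 settings. Among the fits that left out 1 liver, the Plekha8 call held only without S1pr2 shRNA liver 1, and the Zdhhc9 call was lost in each. Zdhhc9 counts were shared with other genes in all 6 libraries.

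Of 15 lysosomal genes of sphingolipid breakdown, 1 rose and 2 fell (median log2 fold change -0.17). Arsa, the arylsulfatase that removes sulfate from sulfatide, stood at 44.3, 42.8 and 44.2 CPM in scramble and 86.1, 82.4 and 81.9 CPM in S1pr2 shRNA livers. It rose 1.91-fold (0.93 on the log2 scale, SE 0.09, edgeR adjusted p = 0.00361) and was called in all 16 settings. The transcripts of the enzyme that makes sulfatide and of the one that breaks it down were thus both higher. Sulfatide itself was not measured. Gm2a, the activator protein for ganglioside breakdown, was at 290, 263 and 264 CPM in scramble and 157, 145 and 164 CPM in S1pr2 shRNA livers. Scarb2, the receptor that carries glucocerebrosidase to the lysosome, was at 81.2, 78.4 and 75.5 CPM in scramble and 41.9, 47.0 and 48.2 CPM in S1pr2 shRNA livers. Both fell with no overlap, Gm2a by 0.81 on the log2 scale (SE 0.12 and adjusted p = 0.00983 in edgeR) and Scarb2 by 0.78 (SE 0.10, edgeR adjusted p = 0.00633). Gm2a lost its call without S1pr2 shRNA liver 2 (edgeR adjusted p = 0.0576).

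Past Ugcg, 1 of 7 genes of glycosphingolipid synthesis rose and 0 fell. B4galt5, which makes lactosylceramide from the product of Ugcg, was at 13.4, 15.3 and 16.4 CPM in scramble and 29.8, 20.9 and 24.8 CPM in S1pr2 shRNA livers (log2 fold change 0.75, SE 0.15, edgeR adjusted p = 0.0254). It lost the call in 4 of the 6 fits that left out a liver, those without scramble liver 1, 2 or 3 or without S1pr2 shRNA liver 3 (edgeR adjusted p = 0.0686, 0.0802, 0.0609 and 0.0793). St3gal5, which adds sialic acid to lactosylceramide and so opens the ganglioside series, was singled out after its values were seen. It was at 865, 362 and 424 CPM in scramble and 146, 215 and 100.2 CPM in S1pr2 shRNA livers. The groups did not overlap, scramble liver 1 stood high as in Cers6, and the log2 fold change of -1.84 (SE 0.42) was just short of the threshold (edgeR adjusted p = 0.0518). It was called in 4 of 16 settings: edgeR with upper-quartile scaling (adjusted p = 0.0472) or without the robust option (0.0356), limma-voom (0.0338) and the DESeq2 Wald test (9.6e-06). Its counts were shared with other genes in all 6 libraries.

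On the side of acyl-CoA supply, 1 of 18 genes of fatty acid activation and elongation rose and 3 fell (median log2 fold change -0.32). Elovl2, an elongase of polyunsaturated chains, was at 95.3, 122 and 141 CPM in scramble and 253, 251 and 290.3 CPM in S1pr2 shRNA livers and rose by 1.15 log2 units (SE 0.17 and adjusted p = 0.00946 in edgeR). Elovl6, the elongase that extends palmitoyl-CoA, was at 196, 310.2 and 272 CPM in scramble and 69.2, 45.8 and 99.1 CPM in S1pr2 shRNA livers and fell by 1.86 on the log2 scale (SE 0.30 and adjusted p = 0.0174 in edgeR). The Elovl2 call held in all 16 settings, and the Elovl6 call was lost without scramble liver 3 or S1pr2 shRNA liver 1 (edgeR adjusted p = 0.0570 and 0.0619). Elovl6 counts were shared with other genes in all 6 libraries. Acsl5, an acyl-CoA synthetase, fell by 0.68 (SE 0.14 and adjusted p = 0.0293 in edgeR) and Hsd17b12, a reductase of the elongation cycle, fell by 0.46 on the log2 scale (SE 0.10 and adjusted p = 0.0324 in edgeR), each call holding in 8 of 16 settings. Of 7 genes of serine synthesis and use, 0 passed in edgeR, 2 had an unadjusted p under 0.05 and 1 was called by the DESeq2 Wald test. Their median log2 fold change was -0.42, with 2 of the 7 above 0.

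**Figure D5:**
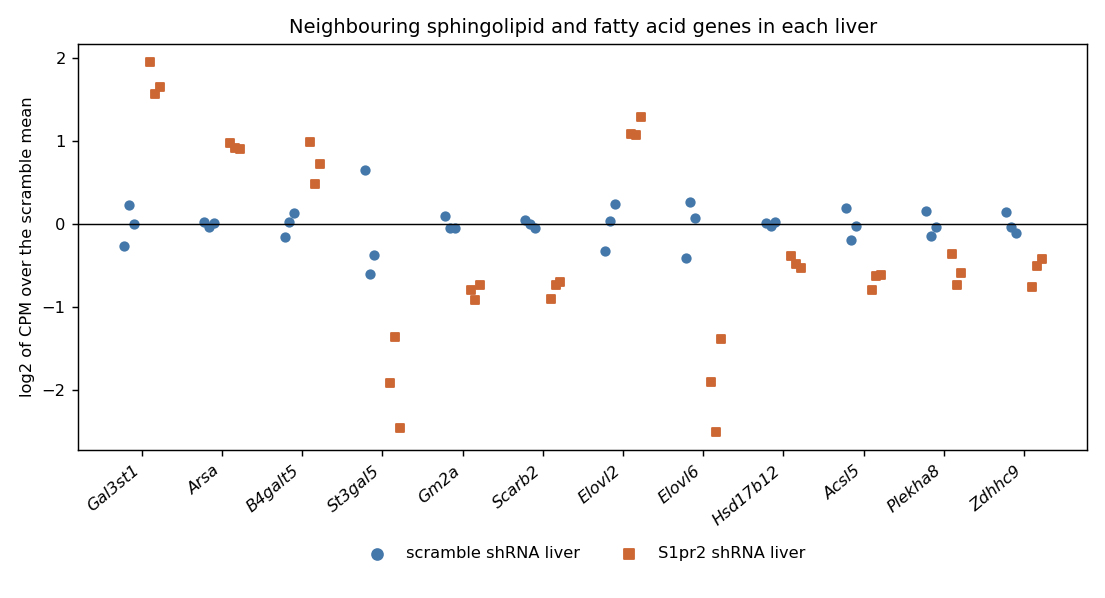
Log2 of CPM over the scramble mean in each liver. Shown are the called genes from the lists of further sphingolipid enzymes and transfer proteins, glycosphingolipid synthesis, lysosomal breakdown and fatty acid supply. St3gal5, which did not pass, is shown with them. Arsa and Gal3st1 lie above and Gm2a, Scarb2 and Elovl6 below all scramble livers, and scramble liver 1 is the highest point of St3gal5.

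Of the S1P receptors other than the target, S1pr1, the receptor abundant in endothelial cells, was at 31.6, 37.1 and 41.8 CPM in scramble and 56.6, 55.6 and 64.5 CPM in S1pr2 shRNA livers. The groups did not overlap, and S1pr1 rose by 0.68 log2 units (SE 0.13 and adjusted p = 0.0210 in edgeR). That call was lost without scramble liver 2 or S1pr2 shRNA liver 2 or 3 (edgeR adjusted p = 0.0722, 0.0707 and 0.0809). Most endothelial markers had estimates of the same sign. Of 18, 16 were above 0, while Lyve1 (-0.83) and Flt1 (-0.20) were below. In edgeR 6 were called higher (Cdh5, Tie1, Kdr, Tek, Fcgr2b and Egfl7), where 3.02% of all genes were. For the 18 markers the median log2 fold change was 0.32, and their summed level was 393 to 435 CPM in scramble and 497 to 545 CPM in S1pr2 shRNA livers. Their part in the S1pr1 result was not tested. The 6 calls were fewer in every fit that left out a liver, down to 0 without scramble liver 2 or S1pr2 shRNA liver 2. S1pr3 was at 1.04 to 2.99 CPM and S1pr5 at 1.62 to 5.21 CPM with overlapping groups, and S1pr4 was below the filter.

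Markers of other cell types were counted in the same way. Of macrophage markers 0 of 14 passed in edgeR (1 with an unadjusted p under 0.05, 1 called by the DESeq2 Wald test), with summed levels of 160.4 to 400 CPM in scramble and 248 to 507 CPM in S1pr2 shRNA livers. All 14 had a log2 fold change above 0, with a median of 0.54. Their mean log2 difference from the scramble mean was -0.57, -0.22 and 0.79 in scramble livers 1 to 3. In S1pr2 shRNA livers 1 to 3 it was 1.27, 0.29 and 0.30. Of stellate cell markers 0 of 14 passed (1 with an unadjusted p under 0.05, 0 called by DESeq2), with 274 to 623 and 415 to 668 CPM. Among these 12 of 14 were above 0, with a median log2 fold change of 0.29. Their mean log2 differences were -0.74, 0.02 and 0.72 in scramble and 0.81, -0.10 and 0.02 in S1pr2 shRNA livers. In both lists S1pr2 shRNA liver 1 stood highest, and S1pr2 shRNA livers 2 and 3 lay within the scramble range. Of cholangiocyte markers 1 of 7 rose, Krt23, at summed levels of 28.9 to 55.7 and 48.2 to 113 CPM. Above 0 were 5 of the 7, with a median log2 fold change of 1.07. The Krt23 call held in 10 of 16 settings and was lost without scramble liver 2 or 3 or S1pr2 shRNA liver 1 or 2 (edgeR adjusted p up to 0.0827). Of neutrophil markers 0 of 3 passed (0 at an unadjusted p under 0.05, 0 in DESeq2), and of erythroid markers 0 of 5 (1 and 1). The median log2 fold changes of these 2 lists were 0.45 and -0.03. Of 11 lymphocyte markers listed, 10 were below the filter and 1, Cd4, rose from 0.84 ± 0.78 to 6.52 ± 3.12 CPM (SD, n = 3 each). In S1pr2 shRNA livers 1 to 3 Cd4 had 78, 163 and 96 counts. In the same livers the lymphocyte markers Cd3e, Cd3d and Cd3g had far fewer (1, 6 and 1, then 2, 2 and 2, then 0, 0 and 4). Whether the Cd4 counts came from lymphocytes was not tested. The Cd4 call also held in 10 of 16 settings and was lost without scramble liver 1 or 3 or any 1 of the S1pr2 shRNA livers (edgeR adjusted p up to 0.115). The part of these cells in the sphingolipid values was not tested.

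Among 9 genes for carriers and transporters of S1P in plasma, 0 were called higher and 2 lower in edgeR, with a median log2 fold change of -0.59. An unadjusted p under 0.05 was reached by 7, and the DESeq2 Wald test called 6. Above 0 lay 2 of the 9. One was Apoa1, with means of 5170 CPM in scramble and 10940 CPM in S1pr2 shRNA livers. Its groups did not overlap, and it did not pass (log2 fold change 1.08, SE 0.45, edgeR adjusted p = 0.199). Apoa4, an apolipoprotein, was at 3010, 2096 and 2680 CPM in scramble and 663, 464 and 1021 CPM in S1pr2 shRNA livers (log2 fold change -1.86, SE 0.30, edgeR adjusted p = 0.0142). Abca1, the lipid exporter that loads apolipoprotein A-I and has been linked to S1P export, fell by 0.90 on the log2 scale (SE 0.15 and adjusted p = 0.0142 in edgeR), from 139 ± 24.3 to 74.7 ± 4.93 CPM (SD, n = 3 each). The Abca1 call was lost without S1pr2 shRNA liver 2 or 3 (edgeR adjusted p = 0.0740 and 0.0508). Apom, the dedicated carrier and a member of the set, was level beside them, as described above. Of the glucocorticoid targets, Dusp1, a phosphatase of stress kinases, fell by 2.01 on the log2 scale (SE 0.28 and adjusted p = 0.0118 in edgeR), and the 14 targets had a median log2 fold change of -1.19, in groups that had both been given dexamethasone according to the series. The Dusp1 call was lost without S1pr2 shRNA liver 2 (edgeR adjusted p = 0.0600) and with the replicate number as a block (edgeR adjusted p = 0.0602). Their part in the values of the sphingolipid genes was not tested.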

How the data were processed

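RNA of 6 mouse livers (3 with scramble and 3 with S1pr2 shRNA) was analysed from 1 deposited table per liver. Per the submitters' processing notes, the tools were RSEM 1.2.12, HISAT2, Bowtie2 and DESeq2 and the build was mm9. Not given in the sources used here are the step each tool served, the annotation and the strand handling. Each deposited table gives every gene's expected count, RSEM's unscaled estimate, and its FPKM, which the authors scaled to transcript length and library size. Genes not listed in a liver were taken as 0. Rows without a symbol were kept under their gene ID and held 0.204 to 0.255% of the counts. Between pairs of libraries the chi-square over its degrees of freedom was 20.1 to 193.5, so none was a copy. Antisense and overlapping genes cannot be told apart, and 16 of the 36 members had a count that was not whole in at least 1 library.

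Expected counts were rounded, filtered with filterByExpr of edgeR 4.0.16 (minimum count 10, R 4.3.3) and scaled by the trimmed mean of M-values. Groups were compared with the two-sided quasi-likelihood F test with the robust option and group as the only factor, and p-values were adjusted by Benjamini-Hochberg over all 12230 genes, called at an adjusted p under 0.05. The SE is that of the log2 fold change, from the F statistic. The common biological coefficient of variation was 20.0%. The code was tested on simulated counts. Alternatives were DESeq2 size factors, upper-quartile scaling, no filter, a mean of at least 1 CPM, the DESeq2 1.42.0 Wald test, limma-voom (limma 3.58.1), no robust option, a block for the replicate number, limma fitted to log2 FPKM after adding 0.1 or 1 (for genes with a mean of at least 0.1), shares from expected counts, and each liver left out.

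Members and lists were chosen with earlier results of these data known. Values in every liver are given for members that were called, had 1 of the 10 largest log2 fold changes or did not overlap between groups, which came to 12, and for up to 4 called genes of each surrounding list and the S1P receptors. Sgpl1, Acer2, Cers2 and St3gal5 were added after their values were seen. Same-numbered livers did not deviate together (correlations of -0.06, 0.22 and -0.12), so the numbers were not taken as pairs.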

Additional observations from a re-analysis of the deposited data

How the results depend on the processing

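The depth limits the rarest members (Degs2, Sphk1 and Sgpp2 at up to 16 counts per liver), and with 3 livers a group the SE of a member's log2 fold change was 0.16 at the median. Degs1, at 0.44 with an SE of 0.11, was not called, so a difference of that size relative to its SE could miss the threshold at this depth and number of livers. Of all genes, 937 passed the edgeR test, 1461 the DESeq2 Wald test and 231 to 643 when 1 liver was left out, the fewest without S1pr2 shRNA liver 2. The number of members called, 1 in the edgeR fit, was 2 with upper-quartile scaling (Asah2 and Degs1), 3 with the DESeq2 Wald test (Asah2, Degs1 and Cers6) and 2 with limma on log2 FPKM and a pseudocount of 0.1 (Degs1 and Ormdl1). It was 0 to 1 with a liver left out, the 0 coming without S1pr2 shRNA liver 2. The median log2 fold change of the members, -0.01, was 0.052 with upper-quartile scaling and 0.15 and 0.11 with limma on log2 FPKM at a pseudocount of 0.1 and 1, while that of all genes was 0.08, 0.16 and 0.10 in the same fits, so the members moved with all genes; with a liver left out it was -0.04 to 0.02. Of the surrounding genes 16 were called, 30 by the DESeq2 Wald test and 7 to 16 with a liver left out. S1pr2 was not called by limma on log2 FPKM (-0.90 and -0.54, limma adjusted p = 0.0661 and 0.0677), and its log2 fold change was -1.29 to -0.95 with a liver left out. S1pr5, not called in any of these fits, turned to -0.14 without S1pr2 shRNA liver 2 and lay between that and 0.57 with each liver left out. None of the 12 members described by liver changed sign in the 16 settings, and 5 of them were called in at least 1. Of the other 22 tested members 16 changed sign in at least 1 setting and 0 were called in any.

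With the replicate number as a block, 3 members were called (Asah2, Cers6 and Sgms1, edgeR adjusted p = 0.0290, 0.0202 and 0.0483), 808 genes in all, and S1pr2 was not (log2 fold change -1.12, edgeR adjusted p = 0.0684). Since the numbers did not pair the livers, these values are given here only. Not every liver correlated best with its own number.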
